A study of Rattus norvegicus with 34 samples.

Results

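The comparison described here is between untreated embryo bone and untreated embryo liver of Wistar rats on gestational day 20, shortly before birth. Its members are 8 of the 34 samples of the series, 4 of embryo bone and 4 of embryo liver, chosen by their labels: tissue, vehicle treatment, gestational day 20, and arrays of a single array number whose other channel carried RNA of EMD-treated embryos. The study itself asked how EMD 82571, a calcium sensitizer by the series title, and retinoic acid act on pregnant rats and their embryos, and the vehicle RNA served it as the reference on every array. Dams were dosed daily on gestational days 6 to 11 or 6 to 17, per the labels' protocols, and the vehicle is not named there. RNA of the vehicle-treated group was labelled with Cy3 and hybridised together with Cy5-labelled RNA of the same tissue from embryos of dams given EMD 82571 at 50 mg/kg/day (2 arrays of each tissue) or 150 mg/kg/day (2 arrays of each tissue). The labels state the day for the Cy5 partner, and it is taken here for the vehicle RNA on the same array. Only the Cy3 channel is used below, except where the treated channel is named as an alternative setting, so the dye is the same on both sides. All animals are of one strain, and the labels give neither the sex nor the litter of the embryos nor which bones were taken.

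Each array was a small cDNA array with 239 probes named for genes of development, extracellular matrix, growth factors, stress and drug metabolism, each printed as 4 replicate spots. Values are log2 Cy3 intensities after background correction and quantile normalisation over the 8 arrays, and a difference of 1 on this scale is a 2-fold difference. A probe was tested where it was above its local background on at least 3 of the 4 arrays of a tissue. The test was limma's moderated test with Benjamini-Hochberg adjustment over the 237 tested probes, two-sided, with a threshold of 0.05 on the adjusted p. Median spot signal was 2.45 to 4.57 times the local background, and 94.1% to 100% of the probes were above background on each array. The labels do not say whether arrays of a tissue carry RNA of separate embryos, of pools or of one preparation, and the series text gives 5 biological control replicates without tying them to arrays. The median SD of a probe over the 4 arrays was 0.16 in bone and 0.15 in liver, and the SD that the scatter of the replicate spots alone would give was 0.16 and 0.15. The spread between arrays of a tissue was thus close to that of the spots within an array (in liver 0.154 against 0.145), and the p-values below measure the spread between hybridisations, which may be technical.

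Day 20 is a stage at which the long bones of the rat are still largely cartilage models being replaced by bone. Chondrocytes lay down a matrix of type II, IX and XI collagen and aggrecan, hypertrophic chondrocytes and osteoblasts secrete collagenases and osteopontin, and osteoclasts resorb the calcified cartilage. The fetal liver, in contrast, is both the organ that makes plasma proteins and begins to express drug-metabolising enzymes, and the main site of blood formation before birth.

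The tissues differed over most of the array. Of the 237 tested probes, 182 passed the threshold, which is 76.8% of them, 85 of these higher in bone (35.9%) and 97 lower in bone, that is higher in liver (40.9%). On 171 probes (72.2%) the 4 bone values did not overlap the 4 liver values. A difference of at least 2-fold was found for 57 of the probes higher in bone and 51 of those lower, and one of at least 8-fold for 15 and 14. Values of arrays of the same tissue correlated across probes with a Pearson r of 0.986 to 0.995, and those of different tissues with 0.524 to 0.556. The median difference over all tested probes was -0.07 (log2), which is the value to set beside each group below.

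**Figure D1:**
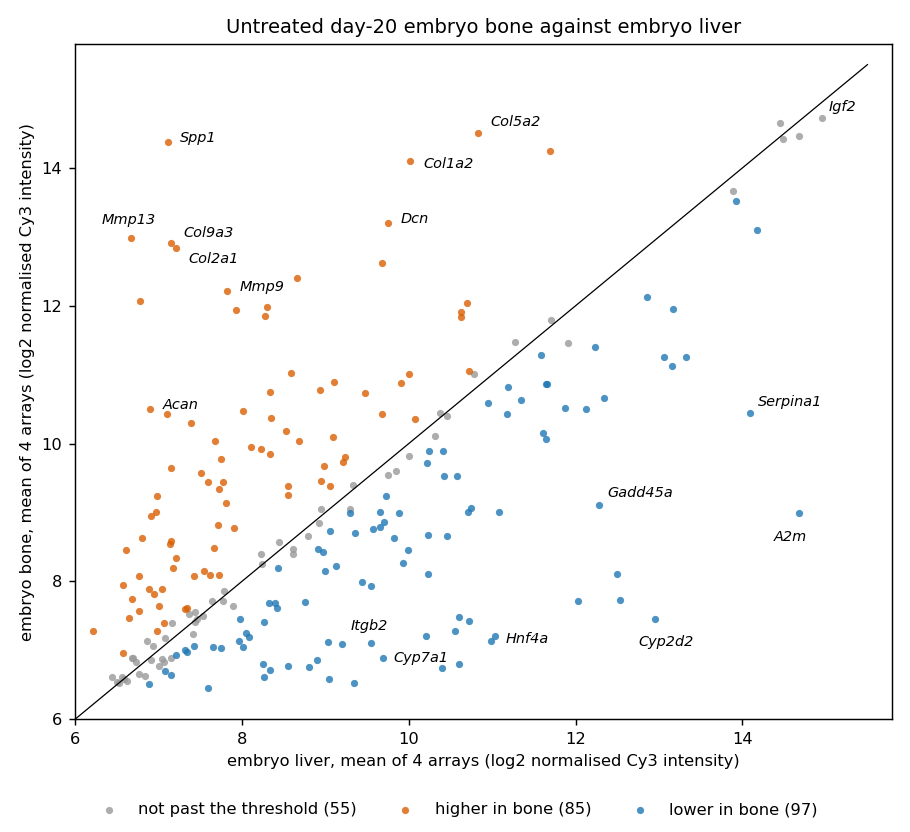
Mean log2 normalised Cy3 intensity of the 4 bone arrays (vertical axis) against that of the 4 liver arrays (horizontal axis) for the 237 tested probes, coloured by the limma test, with the line of equality. Spp1, Mmp13, Col9a3 and Col2a1 lie above 12 in bone and below 8 in liver, and A2m, Serpina1 and Cyp2d2 lie far below the line.

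Genes of mineralised bone and of cartilage matrix were higher in bone, and Spp1 and Mmp13 had the 2 largest positive differences among the tested probes. Spp1 encodes osteopontin, an acidic phosphoprotein of mineralised matrix. Its bone values were 14.27, 14.22, 14.96 and 14.08, and its liver values 7.30, 7.08, 6.94 and 7.12. The groups were thus separated by almost the whole range of the array, with a difference of 7.27 ± 0.17 (log2, SE, n = 4 and 4), or 154-fold (limma, adjusted p = 4.33e-14). Mmp13, collagenase 3, is secreted by hypertrophic chondrocytes and osteoblasts and cleaves type II collagen. It measured 13.02, 13.13, 13.00 and 12.80 in bone against 7.12, 6.45, 6.53 and 6.57 in liver, a difference of 6.32 ± 0.14 (log2, SE), or 79.9-fold (limma, adjusted p = 4.33e-14). In liver Mmp13 was above its local background on all 4 arrays and brighter than the salmon sperm DNA control spots on 3 of them, so its liver level lies near the lower end of the measurable range. Runx2, the transcription factor that osteoblast formation requires, was measured at much lower intensity, at 8.20, 8.57, 8.63 and 8.95 in bone and 6.89, 7.26, 7.43 and 7.00 in liver. It was 2.72-fold higher in bone (1.44 ± 0.16 on the log2 scale, limma adjusted p = 1.10e-06). Col1a2, the second chain of type I collagen, had 3 usable bone arrays, at 13.77, 14.63 and 13.92, against liver values of 9.84 to 10.27, and was 17.0-fold higher in bone.

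The upstream sequences of Mmp13 and Spp1, the genes with the largest differences, are shown because osteoblast transcription factors of the Runx family bind cores such as TGTGGT. They are the 250 bases before the annotated start of each gene from RefSeq, build GRCr8, written 5′ to 3′ on the gene's strand. Capitals mark each match to TGTGGT or to the TATA box letters TATAAA on either strand. Mmp13 lies at chr8:12782579-12782828 on the plus strand and Spp1 at chr14:5619805-5620054 on the minus strand.
Mmp13: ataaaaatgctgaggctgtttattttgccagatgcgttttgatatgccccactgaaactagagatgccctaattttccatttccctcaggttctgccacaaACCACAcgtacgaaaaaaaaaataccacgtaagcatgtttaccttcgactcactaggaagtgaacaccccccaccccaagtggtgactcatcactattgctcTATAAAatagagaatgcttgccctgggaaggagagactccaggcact
Spp1: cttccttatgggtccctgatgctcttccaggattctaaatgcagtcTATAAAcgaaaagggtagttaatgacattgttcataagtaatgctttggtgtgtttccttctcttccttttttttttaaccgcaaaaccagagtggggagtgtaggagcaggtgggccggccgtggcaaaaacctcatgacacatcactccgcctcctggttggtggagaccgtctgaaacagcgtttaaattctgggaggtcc
In Mmp13 TGTGGT lies 149 bases before the start on the opposite strand and TATAAA 47 bases before it. Spp1 has TATAAA 204 bases before the start and no TGTGGT in this window. Only the exact letters TGTGGT were searched. Other forms of the core are therefore not counted in either gene or in the shares that follow. TGTGGT was found in the same window of 14.0% of all 27457 promoters of the RefSeq table, in 6.90% of 58 matched genes higher in bone and in 10.3% of 68 lower in bone. Of the 236 distinct genes on the array, 163 were matched to a promoter.

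All 6 probes of the cartilage matrix list passed the test as higher in bone, with a median difference of 4.45 (log2). Col9a3, a chain of type IX collagen on the surface of cartilage fibrils, was 54.4-fold higher. It measured 12.91, 12.84, 12.89 and 13.02 in bone and 6.85, 7.00, 7.13 and 7.63 in liver. Col2a1, the major fibrillar collagen of cartilage, measured 12.47, 13.05, 12.76 and 13.07 in bone and 7.45, 7.35, 6.97 and 7.08 in liver, and was 49.4-fold higher (limma, adjusted p = 1.49e-13). The bone and liver values of both genes were more than 5 log2 units apart on all 8 arrays. Col11a1, the type XI collagen chain that sets fibril diameter, had 3 usable bone arrays, at 11.66, 12.57 and 11.98 against 6.71 to 6.87 in liver (39.1-fold), and Col9a1, at 9.94, 11.08 and 10.30 against 7.02 to 7.31, was 10.1-fold higher. Acan, the aggrecan core protein that holds water in cartilage, was 12.2-fold higher, at 10.53, 10.78, 10.39 and 10.33 in bone against 6.67 to 7.19 in liver. Hapln1, the link protein that ties aggrecan to hyaluronan, was 4.79-fold higher. The smallest of these differences, that of Hapln1, was 2.26 ± 0.12 (log2, SE). The 3 measured chondrocyte markers Acan, Col2a1 and Col9a1 had a summed level of 12.99 to 13.45 in bone (log2 of the summed intensity, 3 arrays) and of 8.52 to 8.91 in liver.

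**Figure D2:**
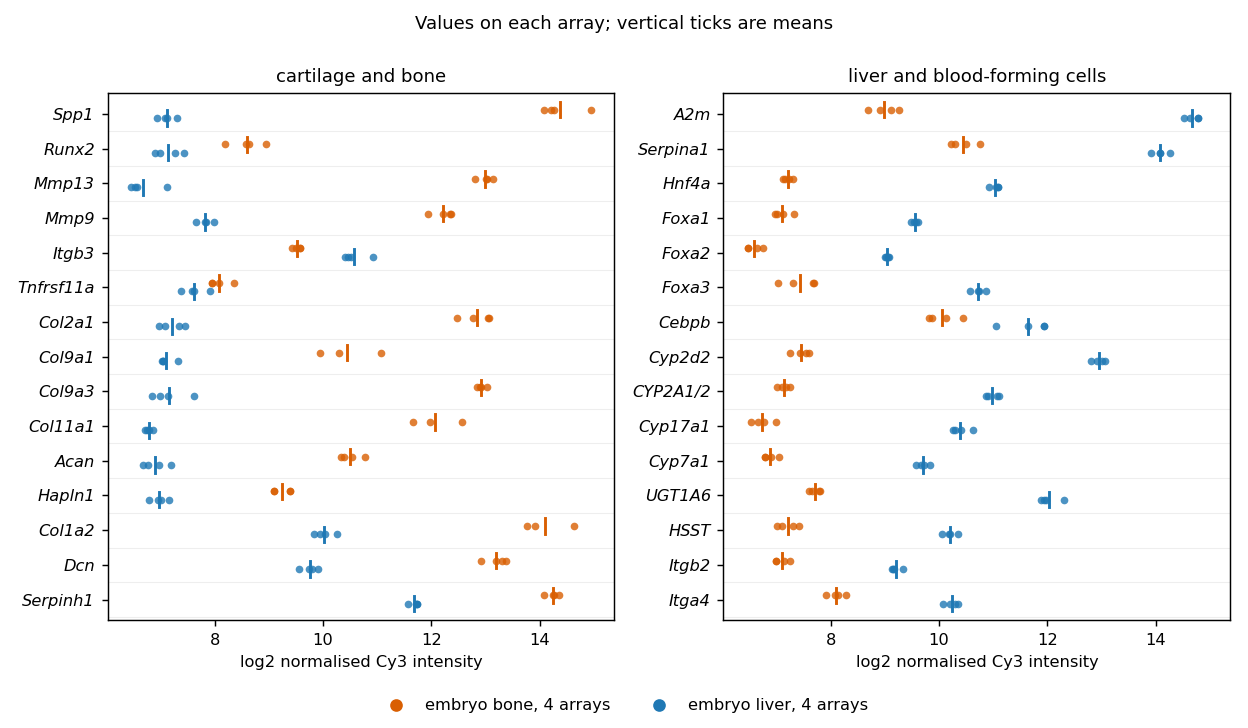
Log2 normalised Cy3 intensity on each of the 4 bone arrays (orange) and 4 liver arrays (blue), with a tick at each mean. Genes of cartilage and bone are on the left, and genes of liver with the integrins Itgb2 and Itga4 on the right. The panel title on the right names blood-forming cells for these integrins, which leukocytes also carry. The bone and liver points of no gene shown overlap, the closest being Tnfrsf11a, whose highest liver value (7.91) lies just below its lowest bone value (7.96), and Itgb3 is the 1 gene on the left that is higher in liver.

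Markers of the osteoclast, the bone-resorbing cell of the monocyte lineage, went both ways. Mmp9, gelatinase B, which osteoclasts secrete into cartilage being resorbed, was 20.9-fold higher in bone, at 11.94, 12.21, 12.35 and 12.36 against 7.65, 8.00, 7.84 and 7.82. Tnfrsf11a, the receptor RANK that osteoclast precursors need, was 1.38-fold higher (0.47 ± 0.13 on the log2 scale, adjusted p = 0.00489 by limma). Itgav, the alpha chain of the vitronectin receptor, was 1.62-fold higher in bone. Itgb3, its partner chain, which platelets and their precursors also carry, was lower in bone, at 9.58, 9.51, 9.43 and 9.58 against 10.52, 10.46, 10.41 and 10.92 (-1.05 ± 0.12, limma adjusted p = 1.64e-06). Csf1r, the macrophage colony-stimulating factor receptor, was also lower, by a log2 difference of -0.49 ± 0.11. In all, 3 of the 5 probes of the list were higher and 2 lower. The call for Tnfrsf11a was lost with median scaling (0.19), with the low-dose arrays alone (0.35) and in the treated channel of the same arrays (0.11), and those for Itgb3 and Csf1r with scaling on reference genes (-0.34 and 0.18) or on the spiked control RNA (-0.44 and 0.075).

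Connective tissue matrix was higher in bone almost throughout. Of 11 probes of the interstitial matrix list, 10 were higher, none was lower, and the median difference was 1.84 (log2). Col5a2, a type V collagen chain that starts type I fibrils, measured 14.39, 14.50, 14.78 and 14.39 in bone and 10.56, 11.02, 10.97 and 10.78 in liver (12.8-fold). Col12a1, a collagen of the fibril surface, was 16.1-fold higher, at 11.52 to 12.30 against 7.61 to 8.20. Tnc, tenascin C of perichondrium and tendon, was 13.5-fold higher, and Dcn, the small proteoglycan decorin, 10.9-fold. Serpinh1, the collagen-specific chaperone of the endoplasmic reticulum, was 5.87-fold higher, at 14.08 to 14.36 in bone against 11.56 to 11.74 in liver. Tnr, a tenascin of the nervous system, was the 1 probe of the list that did not pass, at 6.76 to 6.96 in bone and 6.77 to 7.11 in liver.

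Matrix proteases and their inhibitors followed with 9 of 13 probes higher, none lower and a median of 1.32 (log2). Beside Mmp13 and Mmp9, Mmp2, gelatinase A, was 5.41-fold higher on 3 bone arrays, and Mmp24, a membrane-bound metalloproteinase, 3.59-fold. Timp2, an inhibitor of these enzymes that also takes part in activating Mmp2, was 7.65-fold higher, at 12.80, 12.64, 12.45 and 12.59 in bone and 9.68, 9.61, 9.82 and 9.64 in liver. Plau, the urokinase plasminogen activator, and Timp4 did not pass: Plau measured 8.98 to 9.19 in bone and 8.75 to 9.10 in liver, and Timp4 8.24 to 8.50 and 8.10 to 8.39.

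Basement membrane genes were split. Among 16 probes 9 were higher and 4 lower in bone, with a median of 0.35 (log2). The laminin chains Lama4 and Lama2, found around vessels, muscle and nerve, were 3.58-fold and 3.25-fold higher in bone, and Col4a2, a chain of the type IV collagen present in all basement membranes, 2.53-fold. Col18a1, the collagen from which endostatin is cut and which hepatocytes make, was lower in bone on both of its probes. Probe 1 measured 11.39, 11.52, 10.99 and 11.11 in bone and 12.91, 13.07, 13.08 and 13.20 in liver, and probe 2 gave a difference of -2.03 ± 0.14 against -1.81 ± 0.13 for probe 1. Both probes thus gave the same direction and nearly the same size. Col4a5 and Col4a3, chains of specialised basement membranes such as that of the kidney glomerulus, did not pass (0.01 ± 0.16 and -0.26 ± 0.14).

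**Figure D3:**
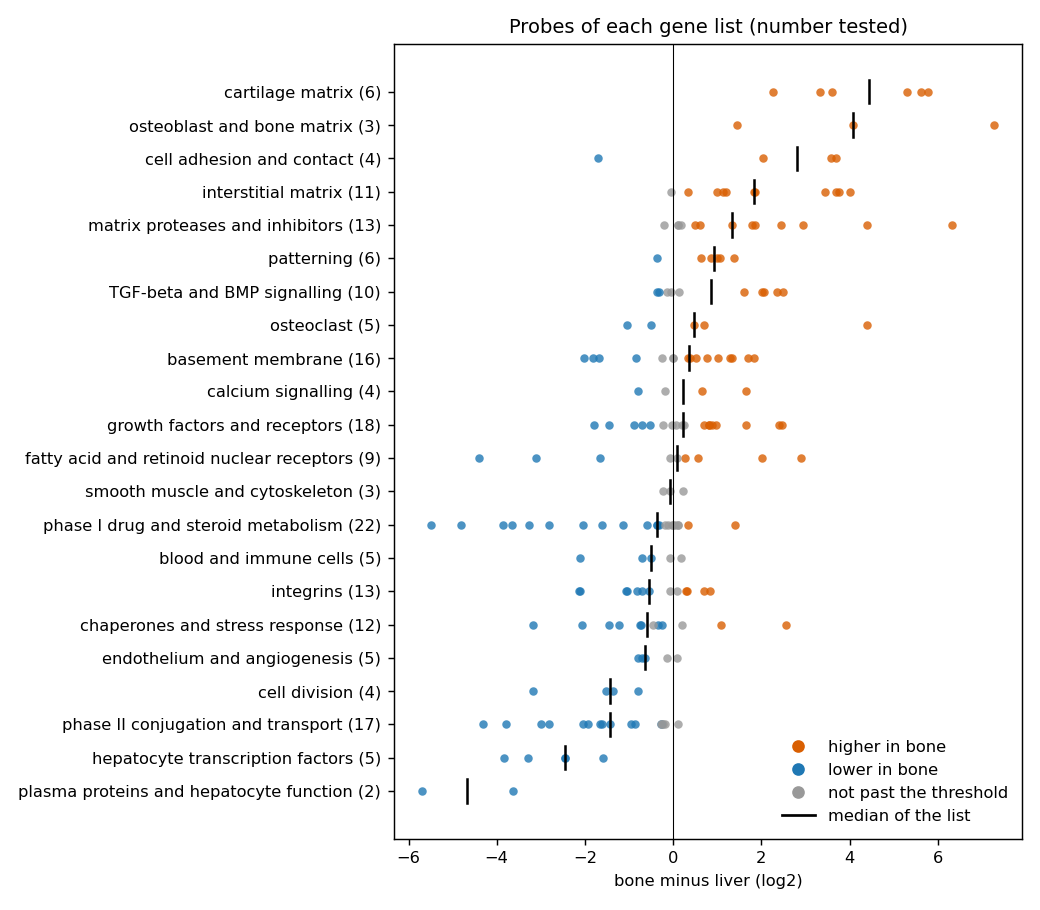
Bone minus liver difference (log2) of each tested probe of 22 gene lists, with the number tested in brackets and a black line at the median of each list. The medians run from -4.66 for the 2 plasma protein probes to 4.45 for the 6 cartilage matrix probes, and over all tested probes the median was -0.07.

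Of the signals that pattern the skeleton, several ligands were higher in bone. In the TGF-beta and BMP list 5 of 10 probes were higher and 2 lower, with a median of 0.87 (log2). The 5 higher were ligands: Bmp3, which is abundant in bone matrix (5.65-fold), Tgfb3 (5.14-fold), Bmp4 (4.16-fold), Tgfb2 (4.07-fold) and Bmp7 (3.04-fold). Bmp4 measured 9.52, 9.71, 9.58 and 9.47 in bone against 7.67, 7.52, 7.51 and 7.36 in liver. Bmp2, which acts early in bone formation, did not pass (8.35 to 8.73 in bone and 8.17 to 8.77 in liver), nor did the receptor Tgfbr1 (-0.14 ± 0.14). The 2 lower, named after their values were seen, were the ligand Tgfb1 (-0.37 ± 0.11) and the receptor Tgfbr2 (-0.32 ± 0.11), and neither call was kept with reference gene or spiked control RNA scaling. Outside the list, the BMP ligands Gdf2, also called BMP9, and Bmp10 were lower in bone as well (-1.78 ± 0.10 and -0.71 ± 0.12), and were likewise named after their values were seen.

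Among growth factors and receptors 8 of 18 probes were higher in bone, 5 lower, and the median was 0.22 (log2). Pdgfa, a mitogen of mesenchymal cells, was 5.51-fold higher in bone, at 10.69, 10.74, 10.24 and 10.25 against 7.99, 7.88, 8.16 and 8.05. Fgfr1, a fibroblast growth factor receptor of perichondrium and hypertrophic cartilage, was 5.31-fold higher, and Ccn2, connective tissue growth factor, 3.14-fold. Egfr and Met, receptors for epidermal and hepatocyte growth factor that hepatocytes carry, were lower in bone by -1.80 ± 0.14 and -1.45 ± 0.13 (log2). Igf2, the main fetal growth factor of the insulin family, did not pass, at 14.63, 14.96, 14.38 and 14.96 in bone and 14.96 on each liver array. It was the brightest probe on all 4 liver arrays, and quantile normalisation gives the same value to a probe of the same rank, so its spread in liver cannot be read from these values.

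Other genes with a role in the skeleton stood with these. Gja1, connexin 43, the gap junction protein that couples osteoblasts, had 2 probes, which were 12.8-fold and 11.9-fold higher in bone. Its first probe measured 12.21, 11.82, 11.81 and 12.10 in bone and 8.13, 8.32, 8.40 and 8.37 in liver. Crabp2, a carrier that delivers retinoic acid to its nuclear receptor, was 7.47-fold higher (10.20 to 10.36 against 7.33 to 7.52), and Rarg, the retinoic acid receptor of cartilage, 4.04-fold. These 2 genes belong to a list of 9 probes on fatty acid and retinoid receptors, of which 4 were higher and 3 lower in bone. Rarb and Ppard did not pass (0.08 ± 0.10 and -0.08 ± 0.12), while Rxra, the shared partner of these receptors, was lower in bone (-1.66 ± 0.09). L1cam, a neural adhesion molecule, was 4.08-fold higher in bone. Of 6 patterning probes 5 were higher, among them Pax9 (2.59-fold), Pax3 (2.00-fold) and Foxc2, transcription factors of the embryonic axial skeleton and its somites, Fzd3, a Wnt receptor (1.82-fold), and Foxj1, a factor of ciliated cells (1.55-fold). Foxc2 was above background on all 4 bone arrays but on 1 of the 4 liver arrays, where it was the dimmest probe, so it entered the test through bone alone and no fold is given. Foxj1 lost its call with median scaling (0.26).

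Genes of the hepatocyte were lower in bone with differences of a similar size to those of cartilage. A2m, alpha-2-macroglobulin, a protease inhibitor of the plasma that the rat fetus makes in quantity, measured 9.11, 9.27, 8.90 and 8.69 in bone and 14.63, 14.78, 14.53 and 14.78 in liver. It was 51.5-fold lower in bone (-5.69 ± 0.13 on the log2 scale, limma adjusted p = 4.33e-14). Serpina1, alpha-1-antitrypsin, the other probe of the plasma protein list, was 12.5-fold lower, at 10.30, 10.23, 10.76 and 10.50 in bone against 14.26, 14.08, 14.08 and 13.92. Neither overlapped between the tissues. In bone both were brighter than the salmon sperm DNA control spots on all 4 arrays.

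All 5 probes for hepatocyte transcription factors were lower in bone, with a median of -2.46 (log2). Hnf4a, the nuclear receptor that maintains the hepatocyte programme, measured 7.12, 7.23, 7.16 and 7.31 in bone and 11.08, 11.06, 10.93 and 11.09 in liver, a 14.3-fold difference (limma, adjusted p = 1.01e-13). The 3 Foxa genes, forkhead factors that open liver enhancers, were lower by -3.29 ± 0.14 for Foxa3, -2.46 ± 0.10 for Foxa2 and -2.44 ± 0.10 for Foxa1. Foxa2 measured 6.48, 6.75, 6.64 and 6.48 in bone, and on 3 of these 4 arrays it was brighter than the salmon sperm DNA spots. Cebpb, a factor of the acute phase that many tissues express, had the smallest difference of the 5 (-1.59 ± 0.19), at 9.81 to 10.44 in bone and 11.06 to 11.95 in liver. The 3 measured hepatocyte markers Serpina1, Hnf4a and Foxa2 had a summed level of 10.51 to 10.95 in bone and 14.15 to 14.45 in liver (log2 of the summed intensity).

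The upstream sequences of Hnf4a and of Cyp2d2, the cytochrome P450 with the largest difference, are shown because liver factors of the HNF1 family bind the half-site GTTAAT. They are again the 250 bases before the start from RefSeq, build GRCr8, on the gene's strand, and capitals mark each match to GTTAAT or TATAAA on either strand. Hnf4a lies at chr3:172641586-172641835 on the plus strand and Cyp2d2 at chr7:115819282-115819531 on the minus strand.
Hnf4a: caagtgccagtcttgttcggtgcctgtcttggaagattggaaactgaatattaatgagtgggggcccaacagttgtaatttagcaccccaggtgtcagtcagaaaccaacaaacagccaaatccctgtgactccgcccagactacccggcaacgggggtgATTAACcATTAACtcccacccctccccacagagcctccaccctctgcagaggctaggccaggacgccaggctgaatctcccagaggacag
Cyp2d2: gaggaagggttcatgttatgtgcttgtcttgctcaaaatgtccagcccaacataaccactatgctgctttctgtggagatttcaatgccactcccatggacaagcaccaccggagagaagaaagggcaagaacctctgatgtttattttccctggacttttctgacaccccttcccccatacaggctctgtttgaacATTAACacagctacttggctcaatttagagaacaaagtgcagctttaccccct
Hnf4a holds the half-site at 90 and 83 bases before the start and Cyp2d2 at 53, all on the opposite strand, and neither holds TATAAA. The half-site was found in 6.58% of all promoters, in 5.88% of the 68 matched genes lower in bone and in 1.72% of the 58 higher in bone. Spp1 holds 1 match as well, which is left in lower case above.

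Most called genes of drug and steroid metabolism were lower in bone. Of 22 tested phase I probes 13 were lower in bone, 2 higher and 7 not past the threshold, with a median of -0.37 (log2). Cyp2d2 measured 7.24, 7.54, 7.60 and 7.44 in bone and 13.02, 12.91, 12.81 and 13.07 in liver (45.2-fold lower in bone), and the probe CYP2D1/5, which stands for 2 related enzymes, was 28.0-fold lower. The probe CYP2A1/2 was 14.5-fold lower. Cyp17a1, an enzyme of androgen synthesis that the fetal rat liver and placenta express, was 12.6-fold lower, at 6.53 to 6.99 in bone against 10.25 to 10.63. Fmo5, a flavin monooxygenase, was 9.71-fold lower, and Cyp7a1, which starts the classic route from cholesterol to bile acids, 7.03-fold (6.79 to 7.05 against 9.58 to 9.83). The 2 higher in bone, named after their values were seen, were Cyp1b1, a P450 of tissues outside the liver (8.45 to 8.76 in bone and 6.99 to 7.35 in liver, 2.64-fold), and Cyp2c7 (0.33 ± 0.14). Only 18 of 31 alternative settings kept the call for Cyp2c7, whose difference ranged from -0.11 to 0.68 over them. Cyp11a1 and Cyp19a1, which make pregnenolone and oestrogens in the gonads, did not pass, and lay between 6.99 and 7.82 on all 8 arrays.

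Conjugating enzymes were lower in bone on 12 of 17 probes and higher on none, with a median of -1.44 (log2). UGT1A6, a glucuronosyltransferase for phenols, measured 7.78, 7.61, 7.66 and 7.81 in bone and 11.94, 11.98, 11.88 and 12.30 in liver (19.9-fold). Ugt2b35 was 13.8-fold lower, the sulphotransferase probe HSST 7.98-fold, the probe UGT2B6 7.06-fold and UGT1A5 by a log2 difference of -2.04 ± 0.11. The oestrogen sulphotransferase probe STE and Ugt2b7 did not pass (-0.18 ± 0.13 and 0.11 ± 0.18). Members of the UGT1A family share exons, and P450 and UGT2B genes have close relatives, so each of these probes may also report related transcripts. Ppara, the fatty acid receptor of liver, was lower in bone on both probes. Probe 1 measured 8.00, 8.33, 8.11 and 7.98 in bone and 12.46, 12.47, 12.48 and 12.59 in liver (21.1-fold), and probe 2 was 8.70-fold lower. The probes gave one direction and differences of different size (-4.40 ± 0.11 and -3.12 ± 0.13).

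Several leukocyte genes were lower in bone. Itgb2, the beta chain of the leukocyte integrins, measured 7.13, 7.25, 7.00 and 7.00 in bone and 9.17, 9.34, 9.13 and 9.16 in liver (-2.10 ± 0.10, limma adjusted p = 1.17e-10). Itga4, an integrin chain of blood progenitors and lymphocytes, measured 7.91 to 8.29 in bone and 10.07 to 10.36 in liver (-2.13 ± 0.11). Itgal, the leukocyte partner of Itgb2, was lower by -0.70 ± 0.11, a call lost with scaling on the spiked control RNA. Of 5 probes of the blood and immune list 3 were lower and none was higher, against 2 lower with reference gene scaling and 1 with spiked control RNA scaling. The cytokines Csf2 and Csf3 did not pass (-0.07 ± 0.12 and 0.17 ± 0.11) and lay between 6.22 and 6.85 on all 8 arrays. The 3 measured blood markers had a summed level of 10.11 to 10.35 in bone and 10.92 to 11.12 in liver. In tissue samples, fewer cells of a type and less RNA per cell cannot be told apart.

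Of the integrins as a whole 4 of 13 probes were higher and 7 lower in bone, with a median of -0.55 (log2). With reference gene scaling 5 were higher and 5 lower (median -0.08), and with spiked control RNA scaling 3 and 4 (median -0.19). Itga1, a collagen receptor chain, was lower (-1.06 ± 0.10), while Itgb1, the common beta chain, and Itga5, the fibronectin receptor chain, did not pass (0.09 ± 0.14 and -0.06 ± 0.11). Cdh1, the epithelial cadherin, was 3.26-fold lower in bone. Endothelial genes differed less: Kdr and Flt4, receptors for vascular endothelial growth factors, were lower in bone (-0.65 ± 0.11 and -0.80 ± 0.10), as was the factor Vegfa (-0.71 ± 0.10), while Pecam1 and Flt1 did not pass (0.08 ± 0.10 and -0.15 ± 0.12). The calls for Kdr and Vegfa were lost with scaling on reference genes (-0.071 and 0.018) and those of all 3 with the spiked control RNA. With the latter no probe of the 5 in the endothelial list passed. The 4 endothelial markers had a summed level of 10.64 to 10.76 in bone and 10.95 to 11.02 in liver. No probe of the skeletal muscle markers was named on the array.

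All 4 probes of the cell division list were lower in bone, with a median of -1.44 (log2). Gadd45a, a growth arrest gene that DNA damage induces, was 9.05-fold lower, at 9.04, 9.35, 9.13 and 8.88 in bone against 12.30, 12.36, 12.36 and 12.10. Top2a, the topoisomerase of dividing cells, was 2.56-fold lower (10.36 to 10.67 against 11.78 to 11.94), and Fen1, a nuclease of DNA replication, 2.88-fold. The polymerase Pold1 was lower by -0.81 ± 0.12, a call lost with scaling on reference genes (-0.24) or on the spiked control RNA (-0.35). Among 12 chaperone and stress probes 8 were lower in bone and 2 higher, with a median of -0.59. With reference gene scaling 4 were lower and 3 higher (median 0.08), and with spiked control RNA scaling 4 and 2 (median -0.04), so the excess of lower calls depends on the scaling. Hspa9, the mitochondrial chaperone mortalin, measured on 3 arrays of each tissue, was 4.19-fold lower, and Hyou1, a chaperone of the endoplasmic reticulum, 2.74-fold. The 2 higher were Serpinh1 and the heat shock probe HSP70.1 (2.13-fold). Hspa8, the constitutive chaperone, did not pass (14.52 to 14.78 in bone and 14.38 to 14.63 in liver), nor did Hsp90aa1, which had 2 usable bone arrays (-0.46 ± 0.23).

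In calcium signalling, Plcd1 (3.16-fold) and the calcium binding protein Calb1 (1.57-fold) were higher in bone, the phospholipase Plcb1 was lower (-0.81 ± 0.10), and Plcg1 did not pass (-0.19 ± 0.13). Of the genes often used as references, Actb, Gapdh, Rps7 and the tubulin probe TUBA did not pass, with differences of -0.07 ± 0.18, -0.22 ± 0.16, -0.25 ± 0.26 and -0.22 ± 0.13. Rps3, Eef1d and Hprt1 were lower in bone (-0.41 ± 0.15, -0.83 ± 0.12 and -0.90 ± 0.11), the first of these with overlapping values. The calls for Rps3 and Eef1d were lost with reference gene scaling (-0.038 and -0.11), and those of all 3 with spiked control RNA scaling (-0.15, -0.22 and -0.54). Cyclic loess normalisation turned Actb (0.39) and TUBA (0.44) to higher in bone. Acta2, smooth muscle actin, had the widest spread in bone, at 11.83, 10.48, 10.17 and 11.56, and did not pass.

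How much the scaling matters was read from the split of the calls. With quantile normalisation 46.7% of the called probes were higher in bone. That share was 61.7% with scaling on the 7 reference genes (103 higher and 64 lower), 59.7% with scaling on the spiked control RNA (83 and 56), and 39.2% with median scaling (78 and 121). The median of all differences moved with it, from -0.07 to 0.20, 0.09 and -0.34. Single probes moved by more than these medians: among the named probes, calls with differences of up to -1.05 (Itgb3) were lost under one or both of the reference gene and spiked control RNA scalings, so differences of about 1 log2 unit or less can depend on the scaling. The 31 alternative settings also include other arrays and the treated channel. Over all of them the difference ranged from 6.34 to 7.69 for Spp1, from -7.19 to -5.36 for A2m and from -4.20 to -3.02 for Hnf4a. The -7.19 for A2m came from the treated channel, which holds RNA of EMD-treated embryos.

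Vehicle RNA on the arrays with the low co-hybridised dose was compared with that on the high-dose arrays within each tissue. The 226 probes measured on all 8 arrays were used. No probe passed in bone or in liver (limma, 0% in each, with 3 and 0 probes at an unadjusted p under 0.05). The median size of the difference was 0.09 in bone and 0.10 in liver (log2), and the largest 0.61 and 0.62. With 2 arrays a side, and perhaps a single RNA preparation for a tissue, this cannot show that the arrays do not differ.

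The same tissues were also measured in the vehicle channel of 2 bone and 2 liver arrays of the retinoic acid experiment (12 mg/kg/day in the treated channel), which were not used to find the calls. Of the 176 called probes with a value there, 158 had the same sign, namely 74 of 82 higher and 84 of 94 lower in bone. Among called probes with a difference of at least 2-fold the sign was the same for 101 of 104, and among smaller ones for 57 of 72. By list, it was the same for 5 of 5 called probes of cartilage matrix and 5 of 5 hepatocyte transcription factors. Basement membrane had 9 of 12, integrins 10 of 11, endothelium 2 of 3, calcium signalling 1 of 3, and blood and immune cells 1 of 2. The list median was -0.15 for basement membrane and 0.16 for integrins, each opposite in sign to the main run. It was -0.03 for endothelium and -0.02 for blood and immune cells. Across the 230 tested probes with a value the differences correlated with a Pearson r of 0.913, with a slope of 0.83. The bone minus liver difference there was 5.46 for Spp1, 3.63 for Mmp13, 5.50 for Col9a3, -5.70 for A2m, -5.17 for Cyp2d2 and -3.68 for Hnf4a (log2). Col12a1 was much closer, at 0.99 against 4.01, and Col4a1 turned from 1.28 to -1.60. Col4a1, and Lrp1 in the plot of both differences, were named after their values were seen. The 2 liver arrays of that experiment carry another array number, so tissue and array number cannot be told apart there, and no test was made.

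**Figure D4:**
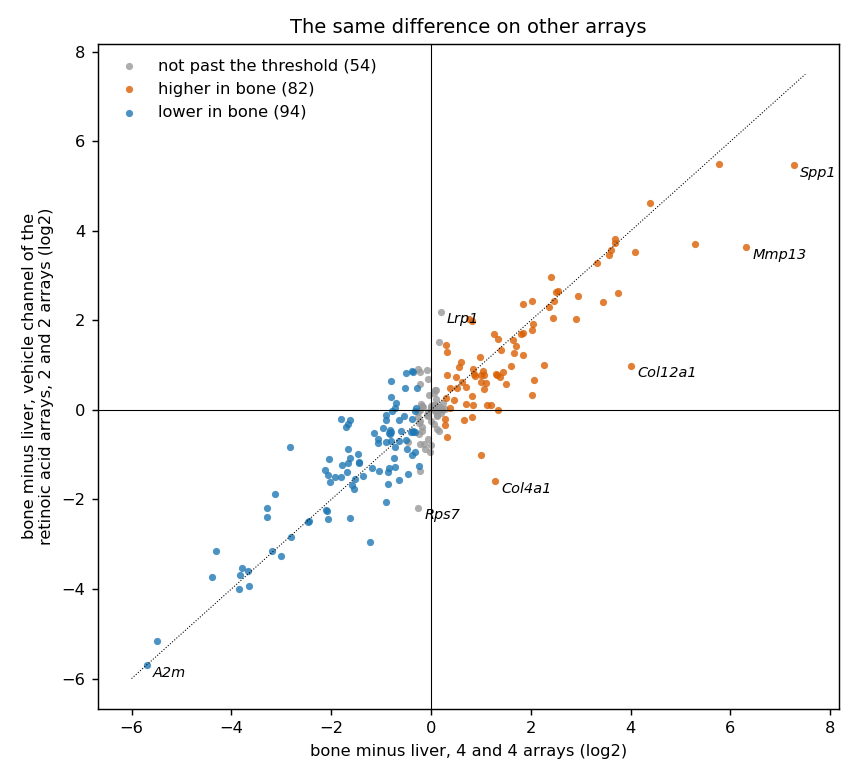
Bone minus liver difference (log2) in the vehicle channel of the retinoic acid arrays (vertical axis, 2 and 2 arrays) against that on the 8 arrays compared (horizontal axis) for 230 probes, coloured by the test on the 8 arrays, with the dotted line of equality. Most called probes lie in the quadrants of equal sign, with Col4a1 as the exception farthest below.

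To place the embryo liver, its values were set beside vehicle-channel values of maternal liver of day 20, from 4 arrays of the same array number, with the 12 arrays normalised together. No test was made for this, and tissue age and the state of pregnancy both differ. Over the tested probes, 60 (25.3%) were higher in maternal than in embryo liver without overlap and 73 (30.8%) lower. On the phase I list 13 of 22 probes were higher in maternal liver and 1 was lower, and on the phase II list 10 of 17 and 2. Genes that both tissues of the embryo had near the bottom of the scale were among these. Cyp2c7, named here with Cyp2e1, Igf1 and several genes of the plot of the 3 tissues (Cyp2c12, Cyp3a9, Cyp4a1, Ybx3) after the values were seen, measured 7.19 in embryo bone, 6.89 in embryo liver and 14.38 ± 0.15 (SD, n = 4) in maternal liver. Cyp2e1, the ethanol-inducible P450, measured 6.61, 8.49 and 13.73. HSST was 4.54 log2 units higher in maternal than in embryo liver, and CYP2A1/2 1.86.

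Other liver genes differed less between embryo and maternal liver, or were higher in the embryo. Serpina1 measured 13.88 in embryo and 13.88 in maternal liver, Hnf4a 10.85 and 11.70, and Cyp2d2 12.81 and 13.26. UGT1A6 was lower in maternal than in embryo liver by -3.09 log2 units, and Ppara probe 1 by -1.64. Igf2 measured 15.01 in embryo liver, 14.65 in embryo bone and 6.82 in maternal liver, the most negative maternal minus embryo liver difference of the tested probes (-8.20), while Igf1, which takes over its role after birth, measured 9.55, 10.69 and 12.27 in these tissues. All 4 probes of the cell division list were lower in maternal than in embryo liver without overlap, among them Top2a at 7.04 against 11.78. Spp1 stood at 6.84 in maternal and 6.94 in embryo liver, against 14.24 in embryo bone.

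**Figure D5:**
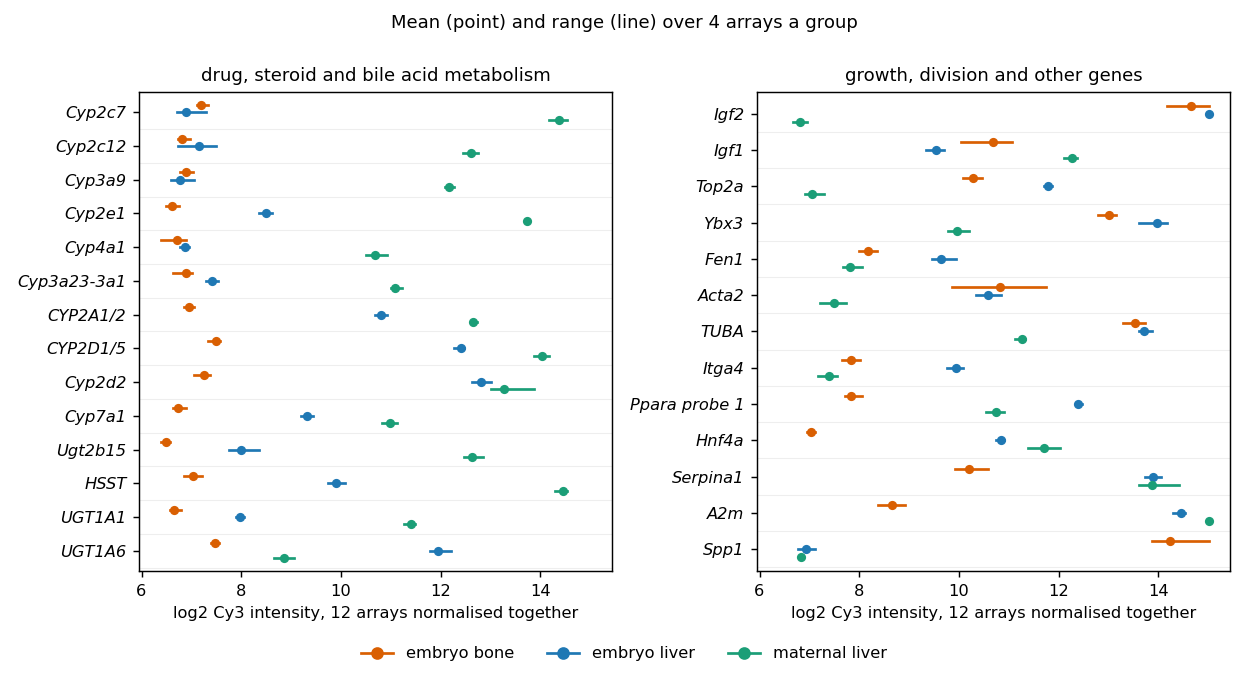
Mean (point) and range (line) of log2 Cy3 intensity over 4 arrays each of embryo bone (orange), embryo liver (blue) and maternal liver (green), after normalising the 12 arrays together, for genes of metabolism (left) and other genes (right). Cyp2c7, Cyp2c12, Cyp3a9 and Cyp4a1 stand near 7 in both embryo tissues and above 10 in maternal liver, while Igf2 and Top2a are high in the embryo and near 7 in maternal liver.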

How the data were processed

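Vehicle-channel (Cy3) values of 4 embryo bone and 4 embryo liver arrays were used. The deposited files hold spot intensities from a scanner image, per the file headers (quantification export 4.1), not normalised. Spots marked by hand or as uneven were left out. The meaning of these marks was inferred from the values. Background was corrected with normexp (offset 50), the 4 spots of a probe were averaged on the log2 scale, and arrays were quantile normalised (limma 3.58.1, R 4.3.3). A spot was above background where its mean exceeded the local background mean by 2 SD, and a probe where 0.5 or more of its usable spots did. Probes also needed at least 2 values in each tissue, and this rule and the background filter together left out 2 of 239. The test was lmFit and eBayes, two-sided, with a prior of 7.32 degrees of freedom, and the script was checked on simulated data. The number of arrays limits the precision.

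Gene symbols were updated through RefSeq: 187 names were current symbols, 23 synonyms and 5 full names, while 8 stand for several genes, 8 for the UGT1 family and 8 were kept as given. The species the probes came from is not given in the sources used here. Genes named are those with up to 15 of the largest differences each way without overlap, up to 5 members of each list by p and 2 not passed, measured cell type markers, reference genes and genes with several probes. A gene on the array is not reported here. The samples compared and the 23 lists were chosen with earlier results of these data known. All 8 arrays were quantified on 1 day, the 4 liver arrays before the bone arrays, so that order and tissue cannot be told apart. Alternatives covered background, scaling, spot and probe filters, the variance model, partner dose, the treated channel, other arrays and leaving out each array.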

Additional observations from a re-analysis of the deposited data

Results flagged for a closer look

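In 15 of the 231 groups of 4 arrays tested over the named probes, 1 array lay far from the other 3 (Dixon's criterion at 95%, which chance meets in about 1 of 20 groups). All values are log2 normalised Cy3 intensities.

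Among genes of liver and metabolism, CYP2D1/5 measured 12.36 on liver replicate 4 against 12.59 to 12.60 on the others, and Ppara probe 1 measured 12.59 there against 12.46 to 12.48. Among matrix and retinoid genes, Col9a1 measured 7.31 on liver replicate 1 against 7.02 to 7.05, Serpinh1 measured 11.56 on liver replicate 4 against 11.72 to 11.74, and Crabp2 measured 7.52 on liver replicate 4 against 7.33 to 7.36. These 5 genes differed between the tissues by far more than these gaps.

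Csf2 measured 6.22 on bone replicate 3 against 6.63 to 6.69, and 6.73 on liver replicate 1 against 6.57 to 6.59. Csf3 measured 6.85 on bone replicate 4 against 6.52 to 6.56. Both lie near the bottom of the scale. Itgav measured 9.71 on bone replicate 1 against 9.66 on each of the others, a gap of little size. Met measured 7.72 on bone replicate 4 against 8.05 to 8.12.

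Of the chaperones, Hsp90aa1 measured 11.25 on liver replicate 4 against 12.10 to 12.20, and Hspa8 measured 14.63 there against 14.38 to 14.39. Pold1 measured 9.81 on liver replicate 2 against 9.48 to 9.50, and Hprt1 measured 8.87 on liver replicate 3 against 9.21 to 9.22. Rps7 measured 8.92 on liver replicate 2 against 10.05 to 10.28, the widest gap of these.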

How the results depend on the processing

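Over 31 alternative settings, 121 of the 182 called probes were called in the same direction under every setting that tested them. Leaving out each array in turn gave 174 to 180 called probes, 81 to 83 higher and 92 to 97 lower in bone. The count lower in bone moved from 97 to 64 with reference gene scaling and to 56 with spiked control RNA scaling. Of the 182 called probes, 15 changed sign with reference gene scaling, 3 of them called in the other direction, 10 with spiked control RNA scaling (none called), 5 with median scaling and 1 with cyclic loess. Apart from scaling, 2 changed sign with the bone arrays of the retinoic acid experiment added. In the treated channel 1 changed sign and was called in the other direction. The named genes listed next passed in the main run or under the setting, and some that passed in neither also turned sign. Among those listed, reference gene scaling turned the sign of Csf1r (0.18), Itga5 (0.69), Ppard (0.46), Vegfa (0.018), Flt1 (0.35), Plcg1 (0.60) and Rps7 (0.45), and spiked control RNA scaling that of Csf1r (0.075). Rps7 is itself among the genes that set the reference gene scaling. Median scaling turned Cyp11a1 (-0.39), Csf3 (-0.36) and Hspa8 (-0.38), and cyclic loess TUBA (0.44), Actb (0.39) and Rps3 (0.10). The cause was not tested. Rps3 also lost its call without bone replicate 1 (-0.25), bone replicate 4 (-0.36), liver replicate 2 (-0.41) or liver replicate 4 (-0.37). The following were chosen after seeing the data: the spot median (177 called) and a block of array sets (182). So was keeping only probes brighter than salmon sperm DNA (157 of 199 tested). The array sets were formed here from the numbers in brackets in the sample titles, 6 to 9 against 12 to 15. No label names them as batches. A quantification session block was not run, because all arrays were quantified on 1 day. No paired analysis was possible because the replicate numbers of bone and liver only name arrays and pair no samples; the block above is of array sets, not of paired samples. Signal over background was lower in liver (2.45 to 3.50) than in bone (3.79 to 4.57), which limits dim probes there.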
